A study of Mus musculus with 12 samples.

Results

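The step described here is the one that sorted wild-type (WT) mouse thymocytes take between the DN4 and DP stages, measured as WT DP minus WT DN4. It was taken as the 2 WT DP arrays against the 2 WT DN4 arrays, 4 of the 12 arrays of the series, across the 34958 of 45099 probe sets that carry 1 gene symbol. The series also holds WT DN3 cells and IkL/L cells at all 3 stages, with 2 arrays in each of its 6 groups. IkL/L thymocytes are Ikaros-deficient according to the series title. The cells of 3 mice were pooled for sorting, and the labels give neither age, strain background nor the surface markers of the sort gates. RNA was amplified in a 2-cycle labelling, in 3 labelling series that started from different amounts of RNA and are not assigned to arrays, so a labelling batch could not be tested. The labels do not say if both arrays of a group had pools of their own, and only for IkL/L do Y-linked genes, given below, show different pools. The p-values measure the spread between these arrays, which may be technical.

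DN4 cells are thymocytes that have made a T cell receptor beta chain, have received the signal of the pre-T cell receptor and divide rapidly. DN stands for double negative, since they carry neither CD4 nor CD8. As they become double positive (DP) cells they display both co-receptors, stop dividing, reopen the V(D)J recombinase at the T cell receptor alpha locus, and then wait as small cells for a test of the finished alpha-beta receptor. Proliferation at DN4 draws on Notch, interleukin-7 and Myc, all of which are known to be withdrawn at DP.

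The labels held against the genes that define them. The 3 tested co-receptor genes, Cd4, Cd8a and Cd8b1, were higher on both WT DP arrays, and so were Rag1, Rag2 and the chemokine receptor gene Ccr9. The DN markers Il2ra, Ptcra, Il7r, Notch3 and Hes1 were lower on both WT DP arrays. Co-receptor levels are what the name DP stands for, so they check the sort and are no finding about it. The WT DP arrays correlated across genes at r = 0.989 and the WT DN4 arrays at r = 0.994 (genes are not independent replicates). The 3 IkL/L replicate 2 arrays stood apart from the other 9 in the Y-linked genes: Eif2s3y was at 2.82 to 3.12 on them and 7.78 to 9.58 on the others. Kdm5d and Uty were low on them too. These 3 arrays thus lacked the signal of male cells, and IkL/L replicates 1 and 2 came from pools that differed in whether they held male cells. The other 9 arrays need not come from males alone. Xist, which female cells express, averaged 11.91 in WT DP and 10.93 in WT DN4 cells beside the Y-linked signal. The error of the model takes in the difference between the IkL/L pools, and results on the IkL/L step are also given without the IkL/L replicate 2 arrays. One measure of RNA quality moved with the stage. The difference between the 3′ and 5′ probe sets of the Gapdh control was 3.40 and 3.83 on the log2 scale on the WT DP arrays, against 2.01 and 2.53 on the WT DN4 arrays, and for the Actb control it was 2.86 and 2.29 against 1.74 and 1.93. With the Gapdh difference as a covariate 2127 genes were called in place of 6638, 876 of them higher and 1251 lower, and with the Actb difference 5986, of which 2973 were higher and 3013 lower. All DP arrays lie above all other arrays in the Gapdh difference, so this covariate and the DP stage can hardly be told apart. Of the 201 called genes named here 143 kept their call with it, and the part of RNA quality in the other 58 was not tested further.

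Much of the measured transcriptome differed across the step. Of 18194 genes on the array, 11649 reached the median signal of the array on at least 2 of the 12 arrays and were tested with limma, a linear model whose error is moderated across genes. Calls were made where p, adjusted by Benjamini-Hochberg, was under 0.05, and 57% of the tested genes were called: 2768, or 23.8%, were higher in WT DP cells and 3870, or 33.2%, were lower. The median difference over all tested genes was -0.15, and more genes were called lower than higher. Large differences ran both ways. A difference of at least 1 on the log2 scale was seen in 1274 called genes higher and 1587 lower in WT DP cells, one of at least 2 in 293 and 316, and one of at least 3 in 81 and 63. Among the called genes, 160 of those higher in WT DP cells had both WT DN4 arrays under the array median, and 409 of those lower had both WT DP arrays under it. A signal below the array median may be mostly background, so differences to or from such a level may understate the change in RNA. In these bulk samples fewer cells of a type and less RNA per cell cannot be told apart. With so many genes called, a share of called members in a gene list is read below against these percentages.

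**Figure D1:**
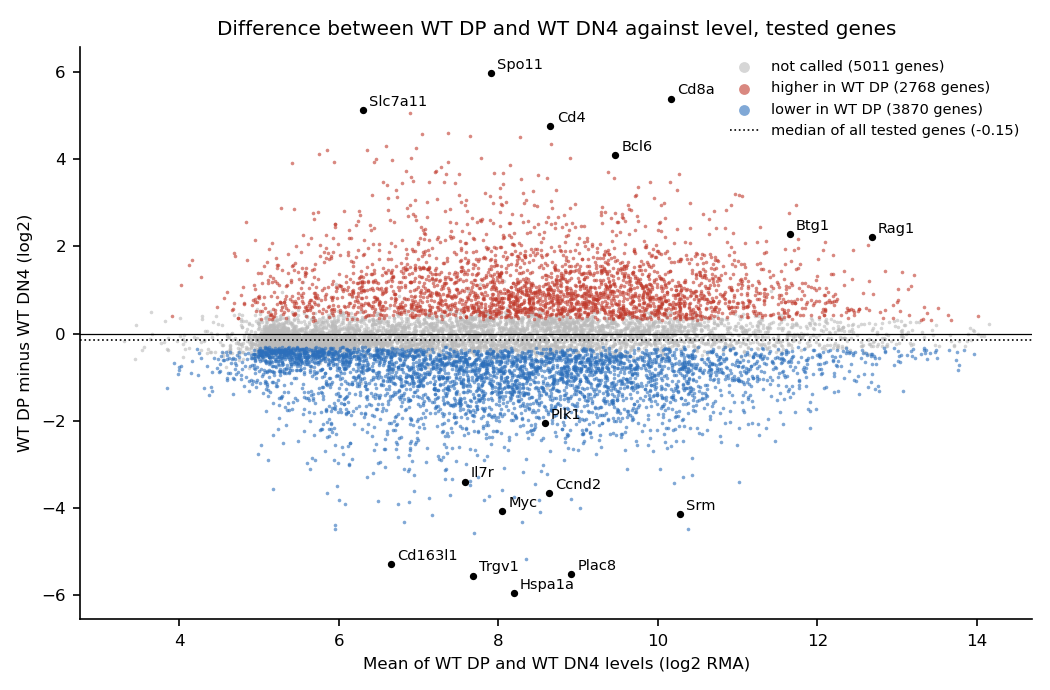
Difference between WT DP and WT DN4 (vertical axis, log2) against the mean of both levels (horizontal axis, log2 RMA) for 11649 tested genes, with 2768 genes called higher in red, 3870 called lower in blue and 5011 not called in grey. Named points include Spo11 at 5.98 and Cd8a at 5.39 among the rises and Hspa1a at -5.95 and Trgv1 at -5.55 among the falls, and the dotted line marks the median of -0.15.

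Ranks given here are those of the brightest probe set of each gene. The largest rise was that of Spo11, the gene of the nuclease that cuts DNA to start meiotic recombination. Its level was 11.03 and 10.76 on the WT DP arrays, against 4.98 and 4.85 on the WT DN4 arrays, a difference of 5.98 ± 0.24 (SE; adjusted p = 2.07e-08) or 63.0-fold. Both WT DN4 values lay under the array median, and WT DN3 cells averaged 6.44. Cd8a, which encodes the CD8 alpha chain, stood at 12.70 and 13.01 in WT DP cells, against 7.05 and 7.88 in WT DN4 cells (5.39 ± 0.23; adjusted p = 2.07e-08). Slc7a11, the cystine transporter gene, followed at 8.72 and 9.01 against 3.56 and 3.91 (5.13 ± 0.17; adjusted p = 1.22e-08). Cd4 was at 10.77 and 11.30 in WT DP cells, against 6.35 and 6.20 in WT DN4 cells (4.76 ± 0.20). In each of these 4 genes both WT DP arrays lay above both WT DN4 arrays, which was a condition for naming them. Of the 6638 called genes 6636 had groups that did not overlap.

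The other leading rises included the amino acid transporter gene Slc6a19 (9.29 and 10.06 in WT DP cells, against 4.97 and 5.18 in WT DN4 cells) and Abca1, the cholesterol exporter gene (4.52 ± 0.20). Plxnd1, a semaphorin receptor gene that guides thymocytes within the thymus, rose by 4.36 ± 0.19, and Fmnl2, a formin gene of the actin cytoskeleton, by 4.30 ± 0.25. Bcl6, a transcriptional repressor gene, stood at 11.53 and 11.50 in WT DP cells, against 7.26 and 7.56 in WT DN4 cells (4.10 ± 0.21; adjusted p = 5.31e-08). F13a1, the coagulation factor XIII A chain gene, differed by 4.52, the metalloproteinase gene Adam12 by 4.21, Lypd6b by 4.04, the vesicle fusion gene Vamp1 by 4.02 and Tctex1d1 by 4.01. Dzip1 (5.07) and the vomeronasal receptor gene Vmn2r84 (4.57) completed the group. Lypd6b was lowest at DN4: WT DN3 cells averaged 8.42, WT DN4 cells 5.77 and WT DP cells 9.80.

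The largest fall was that of the heat shock gene Hspa1a, at 5.32 and 5.12 in WT DP cells, against 10.80 and 11.54 in WT DN4 cells (-5.95 ± 0.53; adjusted p = 2.32e-06). Its neighbour Hspa1b, which shares most of its sequence and may share signal, was at 8.83 and 7.45 against 12.56 and 12.69. Plac8 stood at 6.54 and 5.76 in WT DP cells, against 11.88 and 11.46 in WT DN4 cells (-5.52 ± 0.41). Gpr25, an orphan receptor gene, fell by 4.58, and the gap junction gene Gja1 (-4.49) and Etv5 (-4.38), a transcription factor gene of the Ets family, fell by similar amounts. Smyd2, a lysine methyltransferase gene, fell to 6.21 and 6.07 in WT DP cells, against 10.37 and 10.54 in WT DN4 cells. Srm, the spermidine synthase gene, was at 8.32 and 8.10 against 12.22 and 12.48 (-4.14 ± 0.17; adjusted p = 2.07e-08). In all of these genes both WT DP arrays lay below both WT DN4 arrays, again a condition for naming them.

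Gsto1, a glutathione transferase gene, fell by 4.09, and falls of similar size were measured for Ydjc (-4.32), the branched-chain aminotransferase gene Bcat1 (-3.91), the peptidase gene Thop1 (-3.91), Mfsd13a (-3.85) and the serine carboxypeptidase gene Scpep1 (-3.83). Myc, Jun and Fos were among the 20 largest falls and are described with their groups. Some of these sizes rest on a single probe set. Averaging all probe sets of each gene moved the difference by over 1.5 times in 52 of the 201 called genes named here, among them Abca1 (1.60) and Adam12 (2.24). The call was lost or turned in 8: Adam10, Bcl2, Dtx1, Ighm, Ikzf1, Med12l, Top2a and Ubash3a. Of these only Ubash3a was called the other way, higher in WT DP cells (0.944, adjusted p = 0.000404 in limma). Other tested probe sets gave 2.13, 3.14 and 0.99 for Dzip1, 1.17 for Bcl6, 3.04 for Slc7a11, -1.67 and -1.40 for Etv5, -0.51 and -0.53 for Bcat1, -1.09 and -0.50 for Mfsd13a and -0.95 for Scpep1. For Thop1 the other probe set was at 0.21 (adjusted p = 0.174), so its fall is not shared by both. Other probe sets of Cd8a gave 2.98 to 6.19 and those of Trgv4 -2.86 and -5.96, so the first ranks depend on the probe set.

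**Figure D2:**
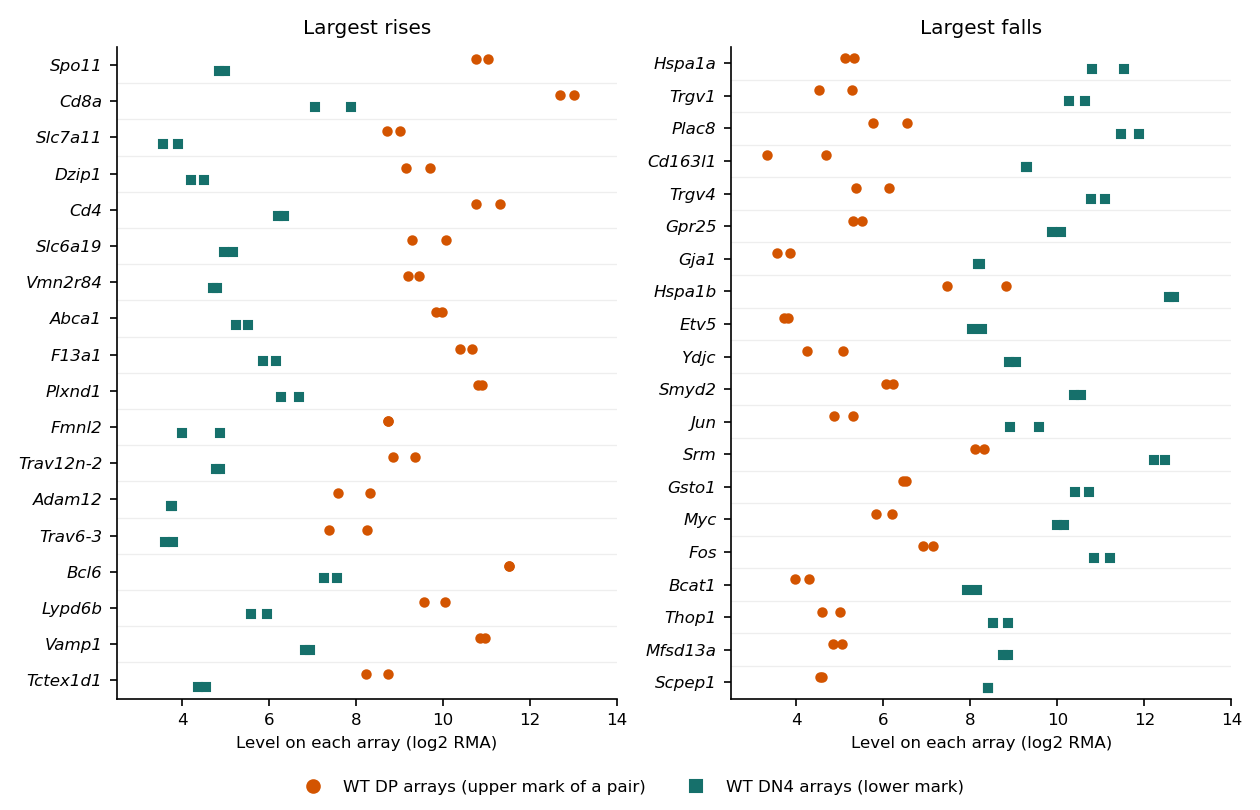
Level on each array (log2 RMA) of the named genes among the 20 largest rises (left) and 20 largest falls (right), with 2 WT DP arrays as circles above 2 WT DN4 arrays as squares. Genes were picked so that the marks of the groups do not overlap, which also holds for 6636 of all 6638 called genes. Spo11 is at 11.03 and 10.76 against 4.98 and 4.85 at the top left. Hspa1a is at 5.32 and 5.12 against 10.80 and 11.54 at the top right.

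The T cell receptor loci moved in opposite directions. A mature receptor is an alpha-beta or a gamma-delta pair, assembled from variable segments at separate loci. Of 8 tested segments 6 were called higher and 2 lower in WT DP cells. The alpha segments Trav12n-2 (9.35 and 8.84 in WT DP cells, against 4.87 and 4.78 in WT DN4 cells) and Trav6-3 (7.38 and 8.24 against 3.61 and 3.79) rose by 4.27 ± 0.21 and 4.11 ± 0.33. Trav9d-3 was at 11.50 and 11.77 against 8.02 and 8.31. Trav13-5 rose by 0.70, with its levels near the array median. The beta segments were bright in both groups and rose less, Trbv13-2 by 1.17 and Trbv1 by 0.60, with Trbv1 at 13.56 and 13.70 in WT DP cells, against 13.04 and 13.02 in WT DN4 cells. The gamma segments fell. Trgv1 was at 5.29 and 4.53 in WT DP cells, against 10.64 and 10.28 in WT DN4 cells (-5.55 ± 0.34; adjusted p = 1.48e-07), and Trgv4 at 6.14 and 5.37 against 11.10 and 10.77 (-5.18 ± 0.27). WT DN3 cells held still more, at 11.75 for Trgv1 and 12.43 for Trgv4. Segments of a family share sequence, so a probe set may take signal from its relatives.

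The CD3 chain genes, Cd247, Ptcra and Tcra changed less than the gamma segments and most alpha segments. Of 13 listed genes of T cell receptor and CD3 chains only these 6 could be read and were tested. No gamma or delta chain gene was among them. Of the 6 genes 3 rose and 1 fell, with a list median of 0.52 against -0.15 over all tested genes. Cd247, the zeta chain gene, rose by 1.37 ± 0.20 (11.66 and 11.91 in WT DP cells, against 10.38 and 10.45 in WT DN4 cells). Ptcra, the pre-T cell receptor alpha chain gene, fell by 0.99 ± 0.19, at 8.06 and 8.76 in WT DP cells and 9.36 and 9.44 in WT DN4 cells. Without WT DP replicate 1 its difference was -0.64. The call of Cd3d (0.55) was lost when an array was left out (adjusted p up to 0.243), and Tcra, at 0.69, gave 0.44 without WT DP replicate 1. Cd3e (0.49, adjusted p = 0.0613) and Cd3g (0.15) did not pass, though Cd3e did with a replicate block within genotype (adjusted p = 0.023). With the Gapdh covariate 1 member was higher and 1 lower.

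Among 13 tested genes of V(D)J recombination 4 rose and 4 fell (3 and 2 with the Gapdh covariate), not far from the 23.8% and 33.2% of all tested genes. The recombinase genes led the rises: Rag1 was at 13.75 and 13.83 in WT DP cells, against 11.52 and 11.63 in WT DN4 cells (2.22 ± 0.17; adjusted p = 6.79e-07), and Rag2 at 11.28 and 10.89 against 8.49 and 8.29 (2.70 ± 0.18). WT DN3 cells, which rearrange the beta locus, lay between them at 12.66 and 9.03. Lig4, the DNA ligase gene of end joining, rose by 1.74 ± 0.17. Dntt, which encodes the terminal transferase that adds bases at junctions, was bright throughout and rose by 0.60. The falls were Xrcc5, which encodes the Ku80 subunit (6.74 and 7.14 in WT DP cells, against 8.75 and 8.86 in WT DN4 cells), Poll (-1.19), Atm (-0.67) and Hmgb2 (-0.61), whose call was lost without WT DN4 replicate 1 or WT DP replicate 2 (adjusted p up to 0.155). The recombinase and its repair partners did not move as a block.

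DP stage genes rose nearly together: 26 of 33 tested members were called higher and 1 lower, with a median of 1.82. Beside the co-receptors, Slamf1 (3.21), the transcription factor gene Ets2 (3.19), the receptor-signal inhibitor gene Cd5 (2.53 ± 0.28), the survival gene Bcl2l1 (2.37) and Cd1d1 (1.82), which presents lipids to NKT precursors, were higher. Ets2 stood at 12.28 and 12.93 in WT DP cells, against 9.40 and 9.44 in WT DN4 cells. With the Gapdh covariate 19 were higher. Satb1, a chromatin organiser gene, rose by 1.34 on its brightest probe set and by 1.73 to 4.58 on the other 4. Rora, a nuclear receptor gene counted with the DP list, was the 1 member called lower (-0.58, at 5.78 and 5.72 in WT DP cells and 6.26 and 6.41 in WT DN4 cells), and that call was lost when an array was left out (adjusted p = 0.0533 without WT DN4 replicate 2). Tox (0.38, adjusted p = 0.18) and Cd69 (-0.48, adjusted p = 0.417), both of which are induced further by positive selection, did not pass.

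Proximal T cell receptor signalling moved the same way. Of 34 members 28 rose and 2 fell, with a median of 1.06. The Tec-family kinase genes Tec (10.39 and 10.51 in WT DP cells, against 7.40 and 7.56 in WT DN4 cells) and Txk (7.61 and 8.84 against 5.44 and 5.59) rose by 2.97 ± 0.16 and 2.71 ± 0.29. Rasgrp1, the Ras activator gene, rose by 1.88, Themis, whose product is needed for positive selection, by 1.87, the adaptor gene Sla by 1.81, Cd6 by 1.70 and the costimulatory receptor gene Cd28 by 1.42. Brakes rose along with accelerators, among them Cd5, the phosphatase gene Ptpn22 (1.37 ± 0.13) and the ubiquitin ligase gene Cbl (1.29 ± 0.15). The 2 falls, Csk (-0.66) and Ubash3a (-0.51), are inhibitors, and both calls were lost when at least 1 array was left out (adjusted p up to 0.356 for Csk, at -0.27 without WT DP replicate 1 and -1.05 without WT DP replicate 2, and up to 0.286 for Ubash3a, at -0.24 and -0.78). The mean of the probe sets of Ubash3a differed by 0.94 and was itself called higher (adjusted p = 0.000404). With the Gapdh covariate 15 members were higher and 0 lower.

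Of 42 transcription factor genes of the T lineage 24 rose and 7 fell (median 0.62), and with the Gapdh covariate 7 were higher and 3 lower. The zinc-finger genes Egr2 (8.18 and 9.17 in WT DP cells, against 5.77 and 6.45 in WT DN4 cells) and Egr1 (10.48 and 11.40 against 8.63 and 9.45) rose by 2.57 ± 0.35 and 1.90 ± 0.31, Klf13 by 1.69 and Nfatc3 by 1.44. Bcl11b, the T lineage commitment factor gene, rose by 1.03 ± 0.12. Ikzf1, which encodes Ikaros, rose by 0.52 ± 0.12 on its brighter probe set, whereas the mean of its probe sets differed by -0.19, and its relative Ikzf3 rose by 1.23. Klf2 (-1.75 ± 0.31), which controls exit of mature T cells from the thymus, and Runx3 (-1.47 ± 0.23), the CD8 lineage factor gene, fell. Lef1 (-0.20, adjusted p = 0.324) did not pass.

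The DN program ran the other way. Of 21 tested DN stage genes 14 fell and 2 rose (10 and 1 with the Gapdh covariate), with a median of -0.92. Il7r, the interleukin-7 receptor gene, was at 6.29 and 5.48 in WT DP cells, against 9.32 and 9.23 in WT DN4 cells (-3.39 ± 0.48; adjusted p = 8.79e-05). The adhesion gene Mpzl2 fell by 3.80 ± 0.16, as did the carboxypeptidase gene Cpa3 (-3.50) and Sox13 (-2.93), the gene of a factor of gamma-delta cells. Il2ra, which marks DN3 cells as CD25, had already dropped by DN4: it averaged 10.72 in WT DN3 cells, 5.98 in WT DN4 cells and 4.96 in WT DP cells. The risers were Cd44 (1.88 ± 0.21, with both WT DN4 levels below the array median) and Gfi1 (1.10 ± 0.22), a repressor gene of lymphoid development.

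Notch receptors and targets fell in 11 of 20 members and rose in 4 (median -0.50), and with the Gapdh covariate 6 were lower and 1 higher. Hes1, a direct Notch target, was at 5.30 and 5.18 in WT DP cells, against 7.24 and 7.92 in WT DN4 cells (-2.34 ± 0.25), and WT DN3 cells averaged 10.49. Notch1 fell by 0.89 ± 0.15 but stayed bright, at 11.29 and 11.31 in WT DP cells, and Notch3 fell by 0.65 ± 0.15. The targets Hes5 (-0.82) and Nrarp (-0.77) fell too, and the largest fall of the list was that of Myc, given below. The 4 risers, Ncstn, Ctsl, Maml1 and Adam10, encode proteases, protease partners or a coactivator. For each of them the mean of all probe sets was smaller by over 1.5 times than the probe set used, at 1.01 against 2.14 for Ncstn and 0.07 against 0.59 for Adam10, whose call was lost.

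Cytokine receptor and SOCS genes were split, with 12 of 25 called higher and 6 lower (4 and 2 with the Gapdh covariate). Socs3, an inhibitor of cytokine signals, rose by 2.80 ± 0.18 (9.28 and 9.56 in WT DP cells, against 6.53 and 6.71 in WT DN4 cells) and Socs1 by 0.96. Jak3, the kinase gene of the common gamma chain, fell by 1.82 ± 0.25 beside Il7r, while the receptor genes Il6st (1.97) and Ifngr1 (1.28) rose. Chemokine and migration receptors gave 10 higher and 3 lower of 24 (7 and 1 with the Gapdh covariate). Beside Plxnd1 these included Sema7a (2.64), Ccr9 (13.47 and 13.36 in WT DP cells, against 11.42 and 11.55 in WT DN4 cells), the LFA-1 chain genes Itgb2 (1.85) and Itgal (1.81), and Cxcr4 (1.15). Sema4a fell by 1.66 ± 0.20.

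**Figure D3:**
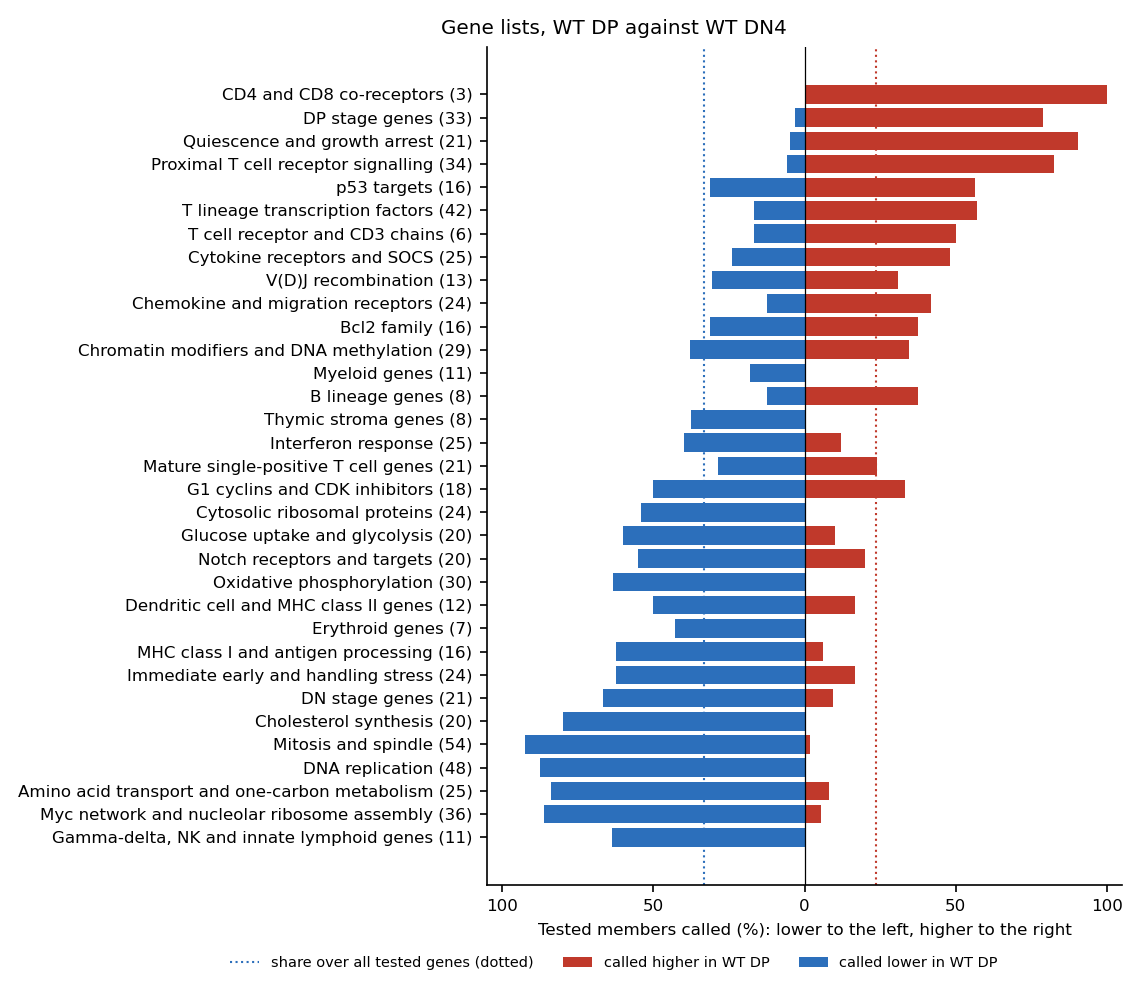
Share of the tested members (number in parentheses) of each gene list called higher (red, right) or lower (blue, left) in WT DP than in WT DN4 cells, sorted by the median difference, with dotted lines at 23.8% and 33.2%, the shares over all tested genes. T cell receptor signalling (28 of 34 higher), DP stage and quiescence genes lie at the top, and replication (42 of 48 lower), mitosis, amino acid, nucleolar and gamma-delta lists at the bottom.

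Cell division genes fell almost without exception. Of 48 DNA replication genes 42 fell and 0 rose (median -1.41), and of 54 genes of mitosis and the spindle 50 fell and 1 rose (median -1.13). Gins2, part of the replicative helicase, was at 7.55 and 7.19 in WT DP cells, against 9.69 and 9.83 in WT DN4 cells (-2.39 ± 0.16; adjusted p = 2.93e-07). The polymerase subunit genes Pold2 (-2.33) and Pole2 (-2.04), the thymidine kinase gene Tk1 (-2.30) and the clamp loader gene Rfc3 (-2.26 ± 0.18) fell by similar amounts. Some of the brightest replication genes moved little on the probe set used. Pcna fell by 0.55, at 12.97 and 12.93 in WT DP cells and 13.47 and 13.52 in WT DN4 cells (adjusted p = 0.0581 without WT DN4 replicate 2). Mcm7 (-0.23, adjusted p = 0.132) and Rrm2 (-0.26, adjusted p = 0.166) did not pass. Their other tested probe sets were lower, at -1.68, -1.16 and -0.70 for Mcm7 and -1.41 and -0.996 for Rrm2. Both genes were called with the mean of their probe sets.

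In mitosis, the kinetochore gene Cenph fell by 2.63 ± 0.18 and Ube2c, which encodes the ubiquitin-conjugating enzyme of cyclin destruction, fell by 2.38 ± 0.22. The kinase genes Aurkb (-2.18), Plk1 (-2.05 ± 0.21) and Aurka (-1.75 ± 0.17) and the separase gene Espl1 (-2.06 ± 0.15) fell as well. Plk1 was at 7.30 and 7.81 in WT DP cells, against 9.50 and 9.70 in WT DN4 cells. Cdk1, the mitotic kinase gene, stood at 9.62 and 9.26 against 10.78 and 11.02. The securin gene Pttg1 was the 1 riser, at 12.39 and 12.68 against 11.62 and 11.89 (0.78 ± 0.15). The proliferation marker Mki67 fell by 0.46 and Top2a fell by 0.63, and both calls were lost when at least 1 array was left out (adjusted p up to 0.0917 and 0.0706). With the Gapdh control as a covariate the replication list had 28 members lower (median -1.20) and the mitosis list 16 (median -0.83).

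Genes of G1 control moved both ways. Ccnd2, the cyclin D2 gene, fell to 7.13 and 6.48 in WT DP cells, against 10.38 and 10.55 in WT DN4 cells (-3.66 ± 0.53), and its partner kinase genes Cdk4 and Cdk6 were at -2.06 ± 0.18 and -2.02 ± 0.15. The inhibitor genes Cdkn1b (the gene of a Cip/Kip inhibitor) and Cdkn2d (an Ink4 inhibitor) rose by 1.64 ± 0.18 and 1.56 ± 0.22, as did the pocket protein gene Rbl2 (1.69). Cdkn1a (another Cip/Kip inhibitor) fell by 1.05 ± 0.18. Ccnd3, the cyclin D3 gene, rose by 1.00 (0.58 without WT DP replicate 2, adjusted p up to 0.0557 without an array), and its other probe sets gave 3.54 and 1.99. In all 6 of 18 members rose and 9 fell (3 and 5 with the Gapdh covariate). Genes of quiescence and growth arrest rose in 19 of 21 cases (median 1.54), and 13 were higher with the Gapdh covariate. Btg2 was at 10.97 and 11.87 in WT DP cells, against 8.64 and 8.88 in WT DN4 cells. Btg1 was at 12.80 and 12.78 against 10.45 and 10.58 and Ccng2 at 11.89 and 11.99 against 9.44 and 9.21. Txnip, which limits glucose uptake, rose by 2.55, the phosphoinositide kinase inhibitor gene Pik3ip1 by 2.29 and Sesn1, an inhibitor of mTOR, by 2.08. Klf2 was the 1 member that fell.

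**Figure D4:**
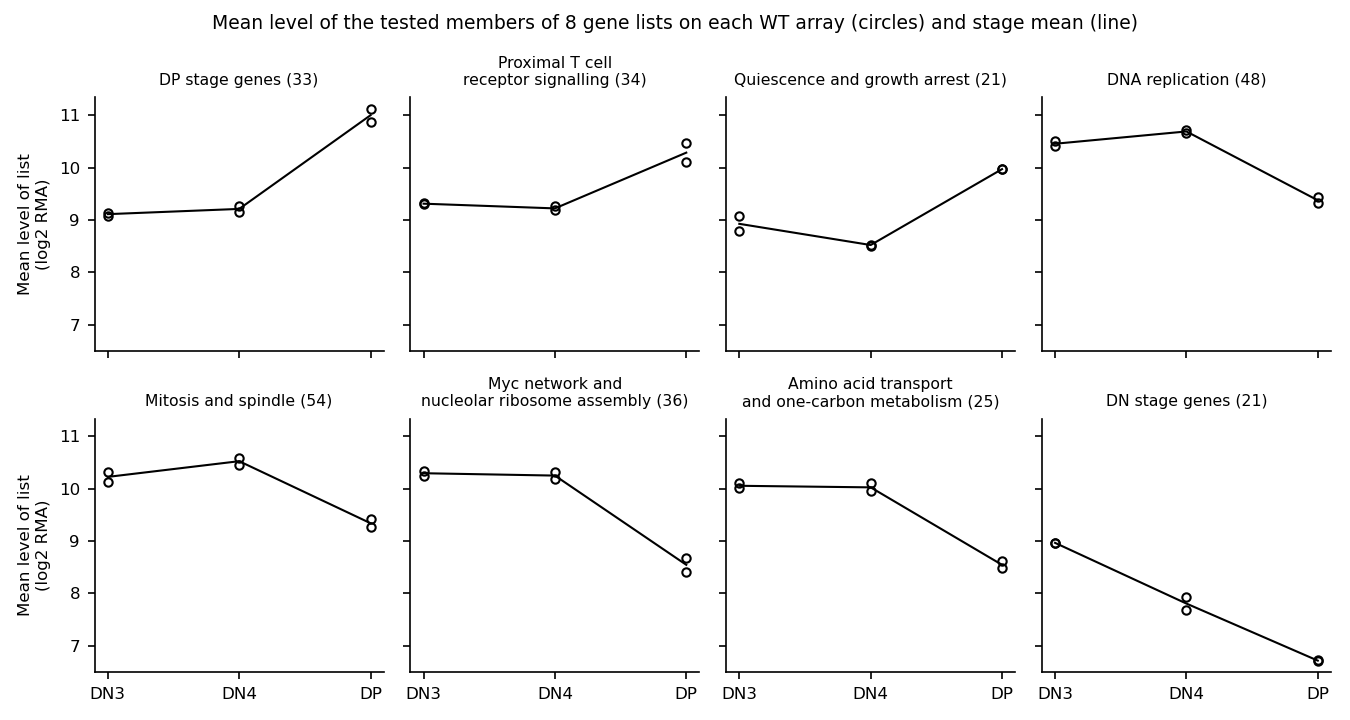
Mean level (log2 RMA) of the tested members of 8 gene lists on each WT array (circles) at the DN3, DN4 and DP stages, with a line through the stage means and the number of members in parentheses. The DP arrays lie above DN4 in the first 3 panels and below it in the other 5, for example at 9.43 and 9.32 in DP against 10.66 and 10.72 in DN4 for DNA replication.

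Growth genes fell too. Of 36 genes of the Myc network and nucleolar ribosome assembly 31 fell and 2 rose (26 and 1 with the Gapdh covariate), with a median of -1.99. Myc itself was at 5.82 and 6.20 in WT DP cells, against 9.99 and 10.16 in WT DN4 cells (-4.06 ± 0.23; adjusted p = 9.2e-08). The rRNA processing gene Rrp12 (-3.02), the RNA polymerase I subunit gene Polr1b (-2.98), Nop58 (-2.68), Mybbp1a (-2.47 ± 0.13), Utp20 (-2.26 ± 0.17) and Odc1 (-2.17), the polyamine synthesis gene upstream of Srm, fell with it. Mxd4, which encodes a repressor that competes with Myc for its partner Max, rose to 11.43 and 11.58 in WT DP cells, against 8.23 and 8.56 in WT DN4 cells, and Mxi1, of the same family, rose by 0.98 (0.65 without WT DP replicate 2). Ribosomal protein genes moved less: 13 of 24 fell and 0 rose, with a median of -0.36 (2 lower with the Gapdh covariate), from Rpl14 at -2.43 and Rps19 at -1.38 to Rps14, which was at 14.05 and 13.92 in WT DP cells, against 13.94 and 13.93 in WT DN4 cells.

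Promoters of the 2 falling cell cycle lists and of other lists were read for short motifs, because members that move together can share them. RefSeq windows of 300 bases (250 before the start to 50 after it, GRCm38.p6; the first listed for a gene with several) were found for 9454 of the 11649 tested genes, 44 of 54 mitosis genes, 40 of 48 replication genes and 29 of 36 Myc and nucleolar genes. Each motif was searched on both strands. The cell cycle homology region, TTTGAA or TTCGAA, lay in 77.3% of mitosis windows, 20% of replication windows and 13.8% of all windows of tested genes, and the CCAAT box in 77.3%, 62.5% and 38.9%. An E2F-like element, TTCCCGC or TTTGGCGC, lay in 45% of replication windows, 6.82% of mitosis windows and 9.37% of those of tested genes. The E-box CACGTG, a palindrome added to the search after the lists had been seen, lay in 31% of Myc and nucleolar windows against 10.2%. The motifs were not limited to falling cell cycle genes: the CCAAT box lay in 60% of 20 windows of quiescence genes, which rose, and 57.1% of 21 windows of amino acid genes. Also searched were the E-boxes CAGCTG and CAGGTG and the ROR half-site AGGTCA. They lay in 11.4%, 4.55% and 11.4% of mitosis windows and 15%, 10% and 10% of replication windows. Over all tested genes the shares were 14.9%, 18% and 12.2%. The DP stage and T cell receptor signalling lists had windows for 21 of 33 and 26 of 34 members and are left out. These are counts of letters and show no binding.

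The windows of the mitosis genes with the deepest falls among those that hold both motifs are printed so that the spacing of the capitals can be seen: Ube2c (chr2:164769679-164769978, plus strand), Espl1 (chr15:102296043-102296342, plus strand), Plk1 (chr7:122159185-122159484, plus strand) and Aurka (chr2:172370521-172370820, minus strand). Capitals mark the cell cycle homology region and CCAAT boxes on either strand, and in Ube2c a box on each strand overlap in 1 run.
Ube2c: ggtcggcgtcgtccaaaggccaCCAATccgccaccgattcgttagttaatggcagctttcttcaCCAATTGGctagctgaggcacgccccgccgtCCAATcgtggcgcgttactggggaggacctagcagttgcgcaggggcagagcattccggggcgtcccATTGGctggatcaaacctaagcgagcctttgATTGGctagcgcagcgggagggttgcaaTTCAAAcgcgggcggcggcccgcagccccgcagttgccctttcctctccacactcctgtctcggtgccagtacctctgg
Espl1: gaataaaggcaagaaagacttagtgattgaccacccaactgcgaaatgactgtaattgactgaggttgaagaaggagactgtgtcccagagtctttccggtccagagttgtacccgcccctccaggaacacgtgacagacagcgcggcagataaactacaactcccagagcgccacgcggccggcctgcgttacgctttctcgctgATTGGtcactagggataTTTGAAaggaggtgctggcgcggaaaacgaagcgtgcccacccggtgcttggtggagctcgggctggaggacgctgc
Plk1: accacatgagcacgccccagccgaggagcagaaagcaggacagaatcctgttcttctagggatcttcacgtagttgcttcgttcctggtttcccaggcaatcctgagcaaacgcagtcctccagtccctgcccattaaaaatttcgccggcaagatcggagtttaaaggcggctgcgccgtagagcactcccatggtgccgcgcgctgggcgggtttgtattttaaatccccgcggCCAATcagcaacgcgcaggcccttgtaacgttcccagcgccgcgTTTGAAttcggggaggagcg
Aurka: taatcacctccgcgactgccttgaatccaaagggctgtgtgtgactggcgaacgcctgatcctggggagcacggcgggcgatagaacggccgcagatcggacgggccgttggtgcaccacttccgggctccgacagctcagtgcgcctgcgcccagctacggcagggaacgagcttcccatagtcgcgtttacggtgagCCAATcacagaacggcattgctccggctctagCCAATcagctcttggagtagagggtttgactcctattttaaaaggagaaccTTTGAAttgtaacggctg

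In all 4 windows at least 1 CCAAT box lies upstream of the homology region, and Ube2c holds several boxes. The replication genes shown are Rfc3 (chr5:151651159-151651458, minus strand) and Pole2 (chr12:69228141-69228440, minus strand), with the E2F-like element in capitals, and the nucleolar genes are Mybbp1a (chr11:72441077-72441376, plus strand) and Utp20 (chr10:88826765-88827064, minus strand), with CACGTG in capitals. They were taken as the deepest falls of their lists with a match.
Rfc3: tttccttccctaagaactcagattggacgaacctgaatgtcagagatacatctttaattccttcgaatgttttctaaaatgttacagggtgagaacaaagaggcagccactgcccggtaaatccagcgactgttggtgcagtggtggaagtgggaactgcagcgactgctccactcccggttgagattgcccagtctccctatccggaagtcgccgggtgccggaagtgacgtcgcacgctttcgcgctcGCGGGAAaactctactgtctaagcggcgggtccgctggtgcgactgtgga
Pole2: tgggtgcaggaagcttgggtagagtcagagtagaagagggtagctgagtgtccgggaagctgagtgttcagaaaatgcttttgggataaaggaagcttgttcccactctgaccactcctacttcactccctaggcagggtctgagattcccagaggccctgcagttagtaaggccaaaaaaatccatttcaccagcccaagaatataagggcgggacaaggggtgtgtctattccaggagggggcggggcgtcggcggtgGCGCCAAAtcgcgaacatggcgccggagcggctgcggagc
Mybbp1a: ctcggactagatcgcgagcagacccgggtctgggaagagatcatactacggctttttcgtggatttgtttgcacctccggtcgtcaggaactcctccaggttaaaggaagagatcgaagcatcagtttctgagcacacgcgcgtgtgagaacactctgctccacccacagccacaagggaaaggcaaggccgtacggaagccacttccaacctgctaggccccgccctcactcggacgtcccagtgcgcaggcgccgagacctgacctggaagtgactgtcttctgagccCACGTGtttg
Utp20: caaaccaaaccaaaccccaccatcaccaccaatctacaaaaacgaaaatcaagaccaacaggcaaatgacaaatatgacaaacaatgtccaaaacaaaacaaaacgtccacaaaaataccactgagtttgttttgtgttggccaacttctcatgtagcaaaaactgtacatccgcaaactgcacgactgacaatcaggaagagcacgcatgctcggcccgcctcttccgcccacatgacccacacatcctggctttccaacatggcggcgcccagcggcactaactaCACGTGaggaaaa

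Biosynthetic metabolism followed the same direction. Of 25 genes of amino acid transport and folate metabolism 21 fell and 2 rose (median -1.65), or 16 and 1 with the Gapdh covariate. The list does not hold Slc7a11 and Slc6a19, which were among the largest rises. Cad, which encodes the enzyme that starts pyrimidine synthesis, was at 6.94 and 7.09 in WT DP cells, against 10.70 and 10.93 in WT DN4 cells (-3.80 ± 0.14; adjusted p = 1.22e-08). The leucine transporter gene Slc7a5 fell by 3.30 ± 0.18 and the mitochondrial serine enzyme gene Shmt2 fell by 3.28 ± 0.14, whereas Slc38a2 rose by 1.05. Cholesterol synthesis fell in 16 of 20 members and rose in 0 (median -1.02; 6 lower with the Gapdh covariate), led by Idi1 (-2.28), Sqle (-2.07) and Cyp51 (-2.06), while Abca1, which exports cholesterol, was among the largest rises. In glycolysis 12 of 20 fell and 2 rose (median -0.49; 7 and 1 with the Gapdh covariate). Hexokinase 2 (Hk2) fell to 4.98 and 5.11 in WT DP cells, against 7.97 and 7.99 in WT DN4 cells, and the lactate dehydrogenase genes diverged, with Ldha at -1.22 ± 0.14 and Ldhb at 2.18 ± 0.12. Pdk1, a pyruvate dehydrogenase kinase gene, rose by 1.28. The glucose transporter gene Slc2a1 (-0.20, adjusted p = 0.354) did not pass. Of 30 oxidative phosphorylation genes 19 fell and 0 rose (median -0.51), but 2 were lower with the Gapdh covariate, with Atp5g1 at -2.10 and Cox4i1 at 0.03 (adjusted p = 0.868).

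Survival and p53 genes held calls of both signs. In the Bcl2 family 6 of 16 rose and 5 fell (2 and 1 with the Gapdh covariate), not far from the 23.8% and 33.2% of all tested genes. Of the protectors, Bcl2l1 (11.04 and 11.32 in WT DP cells, against 8.65 and 8.97 in WT DN4 cells) and Mcl1 (12.75 and 12.59 against 10.71 and 10.78) rose, and Bcl2 fell by 1.13 ± 0.27 on its brightest probe set, with 1.38 (adjusted p = 0.0554) and -0.95 among the others. Of the killers, Bmf (2.55 ± 0.34) and Bcl2l11 (1.62 ± 0.17), which encodes Bim, rose and Bid fell by 1.51 ± 0.13. Other tested probe sets of Bcl2l1 gave 0.29 and 0.39, and of Bmf 0.01 and 0.34, at lower levels. Among 16 p53 targets 9 rose and 5 fell (5 and 0 with the Gapdh covariate). Fas, the death receptor gene, was at 8.62 and 8.69 in WT DP cells, against 4.68 and 4.67 in WT DN4 cells (3.97 ± 0.18; adjusted p = 2.61e-08), and Trp53inp1 rose by 2.03, whereas Cdkn1a fell.

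Of 16 genes of MHC class I and antigen processing 10 fell and 1 rose (median -0.66), but 2 were lower and 0 higher with the Gapdh covariate. H2-K1 was at 8.65 and 8.42 in WT DP cells, against 10.55 and 10.38 in WT DN4 cells, B2m fell by 0.93 ± 0.19 and the immunoproteasome gene Psmb9 fell by 1.52 ± 0.14. H2-D1 (-0.49, adjusted p = 0.122) did not pass. Of 25 interferon response genes 10 fell and 3 rose (4 and 1 with the Gapdh covariate), beside 33.2% lower and 23.8% higher of all tested genes. Bst2 was at -2.17 ± 0.20 and Usp18 at -1.41 ± 0.21 against Igtp at 2.35 ± 0.15. Among 29 chromatin genes 10 rose and 11 fell (2 and 3 with the Gapdh covariate), not far from the 23.8% and 33.2% of all tested genes. Dnmt3b, a de novo DNA methyltransferase gene, fell to 5.69 and 6.14 in WT DP cells, against 9.67 and 9.78 in WT DN4 cells, and the maintenance enzyme gene Dnmt1 fell by 1.07, while Tet2, a methylcytosine oxidase gene, rose by 3.59 ± 0.46 on 1 probe set and stood at 0.02 on the other. The demethylase genes Kdm5b (1.90) and Kdm6b (1.59) rose.

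Handling and immediate early genes moved with the stage as well. Of 24 such genes 15 fell and 4 rose (7 and 1 with the Gapdh covariate), and their mean level was 8.43 and 8.60 on the WT DP arrays, against 9.31 and 9.71 on the WT DN4 arrays. Fos was at 6.91 and 7.14 in WT DP cells, against 10.85 and 11.21 in WT DN4 cells, and Jun at 4.86 and 5.31 against 8.90 and 9.58. Hsph1 fell by 1.73 and Dusp1 fell by 1.96, while Egr1, Egr2, Btg2 and Zfp36 (1.37) rose. WT DN3 cells were near or above WT DN4 cells for Hspa1a (11.87), Fos (12.06) and Jun (10.59). The labels do not give sort times, and the part of handling in these differences was not tested.

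Markers of other cells were examined beside these results. Of 11 tested genes of gamma-delta, NK and innate lymphoid cells 7 fell and 0 rose (median -2.52), and 6 were lower with the Gapdh covariate. Their mean level was 5.77 and 5.59 on the WT DP arrays, against 7.64 and 7.88 on the WT DN4 arrays. Cd163l1, a scavenger receptor gene of gamma-delta cells, was at 4.69 and 3.33 in WT DP cells, against 9.28 and 9.31 in WT DN4 cells, Gzma at 9.61 and 9.04 against 12.81 and 12.62 and Maf at 5.38 and 5.73 against 9.07 and 9.41. With the gamma segments and Sox13 these markers fell together, and whether cells or transcripts were fewer was not tested. Of 12 tested dendritic cell and MHC class II genes 6 fell and 2 rose (2 and 0 with the Gapdh covariate), with H2-Ab1 at 6.30 and 5.88 against 7.44 and 7.84. Myeloid genes gave 2 lower and 0 higher of 11 (1 and 0 with the Gapdh covariate), and Lyz2 and S100a8 were near the array median in all 4 arrays. Erythroid genes gave 3 lower of 7, thymic stroma genes 3 lower of 8 and B lineage genes 3 higher and 1 lower of 8. These small counts stand beside 33.2% lower and 23.8% higher over all tested genes. With the Gapdh covariate 0 erythroid and 1 stroma genes were lower, and 0 B lineage genes were higher and 1 lower. Ighm was bright in both groups, at 13.18 and 13.36 in WT DP cells and 12.46 and 12.78 in WT DN4 cells, while the B cell factor gene Pax5 was near the array median.

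Of 21 mature T cell genes 5 were higher and 6 lower (2 and 6 with the Gapdh covariate), near the 23.8% and 33.2% of all tested genes. Cd52 rose by 2.95 ± 0.26 and Icos by 2.60 ± 0.39, whereas the checkpoint receptor genes Pdcd1 (5.66 and 5.91 in WT DP cells, against 8.89 and 8.89 in WT DN4 cells) and Ctla4 (-2.07 ± 0.22) fell. Ccr7, which marks cells that have passed selection, was near the array median on all 4 arrays and did not pass (-0.34, adjusted p = 0.412). Of the sex-linked genes 0 of 4 tested passed in limma, and 0 had an unadjusted p under 0.05, in a model whose error takes in the IkL/L replicate 2 arrays. With a replicate block within genotype all 4 were called (adjusted p = 0.00973 for Xist), and with the Actb covariate 3 were. Xist was at 12.41 and 11.40 in WT DP cells, against 11.53 and 10.33 in WT DN4 cells.

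The genes of the step also differed in length. The median genomic span was 33.0 kb for genes higher in WT DP cells and 17.2 kb for genes lower, against 22.0 kb over all tested genes, with a span known for 11632 of 11649. Among the lists, proximal T cell receptor signalling genes had a median of 51.4 kb and Myc and nucleolar genes 11.4 kb.

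The same step was measured in IkL/L cells, on arrays that it does not share with the WT step. There 5298 genes were called (45.5%), 2270 higher (19.5%) and 3028 lower (26%) in IkL/L DP than in IkL/L DN4 cells. Of the 2768 genes higher in WT, 1991 were also called higher in IkL/L, which is 71.9% of the WT genes and 87.7% of the IkL/L genes, and of the 3870 lower in WT 2685 were shared, 69.4% and 88.7%. Opposite calls were made for 6 of the genes higher and 15 of the genes lower in WT. Without the IkL/L replicate 2 arrays 3928 genes were called in the IkL/L step, 1563 higher and 2365 lower. Across all tested genes the differences correlated at r = 0.911, as a description.

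The difference between the steps was called for 115 genes (0.987%), 38 with a larger rise or smaller fall in WT (0.326%) and 77 with the reverse (0.661%). It was called for 231 with a replicate block within genotype, and for 38 without the IkL/L replicate 2 arrays, 30 of them shared. Of the 27 such genes named here all 27 kept their sign without these arrays and 14 their call. Wnt8b rose more in WT, by 3.45 against 1.16 in IkL/L, a difference of 2.29 ± 0.33 (adjusted p = 0.00706), and the endosomal adaptor gene Rufy2 by 2.27 against 0.38. Slc6a19 (4.61 against 3.01) and the kinase gene Tec (2.97 against 1.77) rose in both and more in WT. Usp53 (0.95 against -1.15) and Med12l (0.59 against -1.22) had opposite signs, and Slc4a5 was near background in WT while it fell by 2.22 in IkL/L. Pdk1 differed by 0.95.

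Syt14, a synaptotagmin gene, rose by 0.96 in WT against 4.20 in IkL/L (difference -3.24 ± 0.20; adjusted p = 3.28e-05), and the collagen receptor gene Ddr1 by 0.91 against 3.83, where its rise in WT was 0.53 (adjusted p = 0.071) without WT DP replicate 2. Cd8b1 rose by 3.15 in WT, where WT DN4 cells already stood at 9.40 and 9.55, against 4.73 in IkL/L, and Ccr9 by 1.92 against 3.20. Falls were deeper in WT for Trgv1 (-5.55 against -2.88 in IkL/L), Gzma (-3.39 against -1.36), Mpzl2 (-3.80 against -1.99), Pdcd1 (-3.11 against -1.04) and Nkg7 (-2.52 against -0.22). Nkg7 was already near the array median in IkL/L DN4 cells, at 5.34 and 5.52, against 7.53 and 7.92 in WT DN4 cells. Little fall could therefore be measured for it in IkL/L. Ddc (-1.14 against 1.74), the Notch target Dtx1 (-0.92 against 1.41) and Runx3 (-1.47 against 0.16) fell in WT and had the other sign in IkL/L. The WT call of Dtx1 was itself lost without an array (adjusted p up to 0.175). The number of calls moved with single arrays: it was 54 and 36 without WT DN4 replicate 1 or 2, 76 and 159 without WT DP replicate 1 or 2, 50 and 45 without IkL/L DN4 replicate 1 or 2, and 108 and 49 without IkL/L DP replicate 1 or 2. The calls of Ftx, Trgv1, Dtx1 and Cenpv were lost in 7, 5, 6 and 6 of these 8 cases. After a second quantile normalization 34 were positive and 127 negative in place of 38 and 77. The list medians in WT and IkL/L lay close for replication (-1.41 against -1.49) and mitosis (-1.13 against -1.12) and apart for DN stage genes (-0.92 against -0.04) and gamma-delta genes (-2.52 against -0.64), and the difference of lists was not tested.

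**Figure D5:**
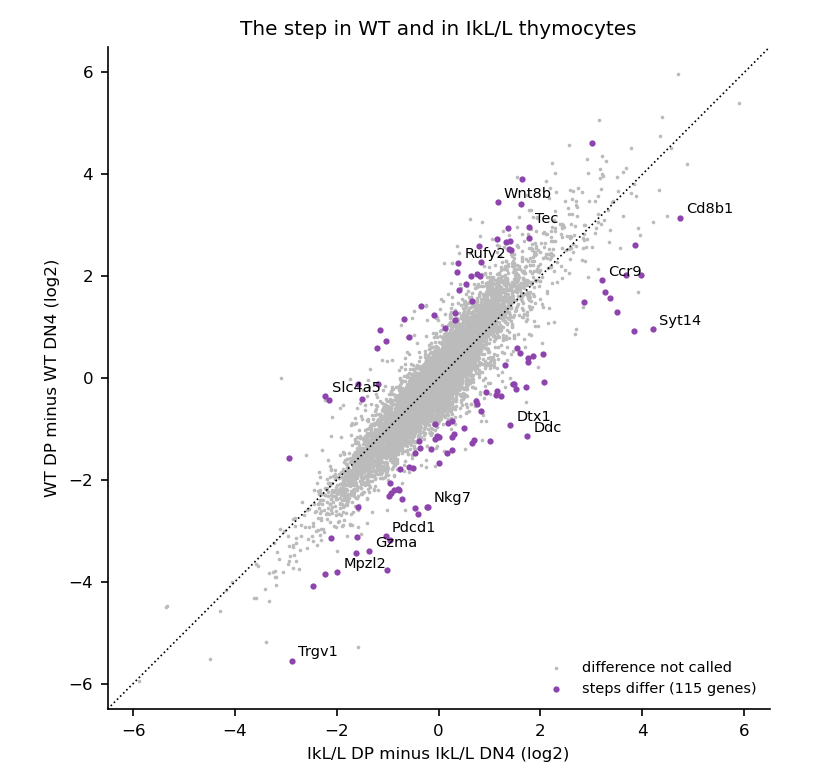
WT DP minus WT DN4 (vertical axis, log2) against IkL/L DP minus IkL/L DN4 (horizontal axis, log2) for 11649 tested genes, with the 115 genes whose steps differ in purple and a dotted line of equal steps. Most genes lie along the line (r = 0.911), Wnt8b (3.45 against 1.16) lies above it and Syt14 (0.96 against 4.20) and Trgv1 (-5.55 against -2.88) below it.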

How the data were processed

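Total RNA of sorted thymocytes was hybridised to 12 arrays of 1 colour, 2 in each of 6 groups. The deposited values are log2 expression made by RMA, per the submitters' processing notes, whose version is not given in the sources used here. Raw scanner values were not used here, and precision is limited by how many arrays there are. Probe sets were named from the platform annotation updated through gene IDs (34958 with 1 symbol, 932 with several, 9209 with none). Each gene was read from its brightest probe set (by the mean of all arrays) and kept if at least 2 arrays reached their array's median. limma 3.58.1 (R 4.3.3) fitted the 6 group means over all 12 arrays with moderated errors, and p-values were adjusted by Benjamini-Hochberg over 11649 genes. On simulated data 85 of 100 genes changed by 1 and 100 of 100 changed by 2 on the log2 scale were recovered, with 9 false calls. The simulation had independent noise and left the rest of the 11649 genes unchanged, whereas 57% were called in the real step. The 9 is therefore no estimate of false calls in the real step. The text names the 20 largest rises and 20 largest falls with groups that do not overlap (unnamed transcripts skipped, keeping their place), the 8 largest differences each way between the steps, and members of 34 gene lists by size. Some list members were named for their role after their values were seen. Members and lists were chosen with earlier results of these data known. Alternatives covered the filter, the choice of probe set, the normalization, the threshold, the samples in the model, the replicate block and the 3′ to 5′ controls. The last were added after the data were seen. Within WT, same-numbered arrays deviated together from their group means in all 3 pairs of stages (r = 0.147 to 0.317, across genes), so the replicate number may pair the WT arrays. Within IkL/L r was 0.015 to 0.494 and between genotypes -0.338 to 0.062. Values between genotypes were as large in size as those within WT, so r does not settle the pairing. The model has no block, and block values stand beside the results they change.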

Additional observations from a re-analysis of the deposited data

Results flagged for a closer look

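These genes differed between the WT step and the IkL/L step by the test of the difference itself, given as WT step minus IkL/L step on the log2 scale. The difference was positive for Wnt8b (2.29), Usp53 (2.10), Rufy2 (1.89), Slc4a5 (1.87), Ftx (1.83), Med12l (1.81), Slc6a19 (1.60), Tec (1.20) and Pdk1 (0.95).

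It was negative for Ccr9 (-1.28), Bst2 (-1.38), Cd8b1 (-1.58), Gsto1 (-1.62), Runx3 (-1.62), Mfsd13a (-1.62), Usp18 (-1.66), Sema4a (-1.67), Mpzl2 (-1.81), Gzma (-2.03), Pdcd1 (-2.06), Nkg7 (-2.30), Cenpv (-2.33), Dtx1 (-2.33), Trgv1 (-2.67), Ddc (-2.88), Ddr1 (-2.91) and Syt14 (-3.24).

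Outside the named genes, 1580 of 3564 tested probe sets with no gene symbol (44.3%) were higher in WT DP than in WT DN4 cells and 336 (9.43%) were lower, with a median of 0.60. The largest was at 11.71 and 11.21 in WT DP cells, against 4.89 and 4.31 in WT DN4 cells.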

How the results depend on the processing

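Of the 201 called genes named here, 189 kept their call in the WT step when each array was left out, and 2 arrays in a group limit every call. Leaving out 1 array gave 5406 to 6086 calls in the WT step and 36 to 159 in the difference between the steps. A fold of more than 1 on the log2 scale as the tested threshold left 1279 calls in the WT step, 698 in the IkL/L step and 1 in the difference. With the Gapdh control as a covariate the calls were 2127, 2951 and 51, and with the Actb control the difference had 186 (86 positive, 100 negative). Testing every probe set gave 11601 and 8721 calls in the WT and IkL/L steps. For the difference, a filter at the 75th percentile gave 75 calls and leaving out the IkL/L replicate 2 arrays 38. The replicate block gave 6585 calls in the WT step. A replicate block within genotype gave 7036, 6619 of them shared, and 231 in the difference, and among the genes named here it changed the calls of Cd3e and of the sex-linked genes in the WT step and no other. A second quantile normalization gave 2676 higher and 4612 lower in the WT step.

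Signs turned in a few cases and the cause was not tested. With the Gapdh covariate Ddr1 was at -0.098, Egr1 at -0.049 and Hmgb2 at 0.265. With probe sets averaged per gene Bcl2 was at 0.026, Ikzf1 at -0.189 and Ubash3a at 0.944, and the medians of the Bcl2 family (-0.01), chromatin (-0.061) and B lineage (0.115) lists turned. The B lineage median was 0.756 with the filter at the 75th percentile, and that of chemokine receptors -0.036 with no filter.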

Other observations

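A probe set shared by the gamma segments Trgv4 and Trgv2 was at 6.21 and 4.95 in WT DP cells, against 11.95 and 11.73 in WT DN4 cells, in the direction of the single-gene probe sets of Trgv1 and Trgv4.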
